A study of Danio rerio with 6 samples.

Results

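A set of 35 genes, out of 32520 in the count tables, was low in control zebrafish melanoma but stayed near its wild-type melanophore level in mgat4b mutant melanoma. Genes were taken when the mean of the wild-type melanophore libraries was at least 5 CPM (counts scaled to a common library size), when each control melanoma library held at most 1/3 of that mean, and when the mean of the mgat4b mutant libraries lay between 0.75 and 4 times it. CPM values carry TMM (trimmed mean of M values) factors over all 6 libraries. Genes of the mitochondrial genome and genes whose names begin with psm, rpl or rps were left out by name, which removed 2 proteasome genes, psma2a and PSMB8. The genes were thus chosen by their measured CPM in all 3 groups, and their differences between groups are given below as a description without a test.

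RNA was sequenced from zebrafish skin preparations enriched for pigment cells by density gradient centrifugation, with 2 biological replicates in each of 3 groups. The mgat4b mutant melanoma libraries came from fish with MAZERATI plasmids, which drive an oncogenic BRAF from the mitfa promoter and target p53 and ptena/b with a melanocyte-specific Cas9, together with guides against mgat4b. The control melanoma libraries came from fish with the same plasmids and a control vector in place of the mgat4b guides. Both melanoma preparations were described as mixtures of transformed cells and melanocytes. The study reported tumours in the control fish. In fish with mgat4b guides it reported signs of melanocyte aggregation but no tumour formation. The name mgat4b mutant melanoma is thus a sample label, and the 2 melanoma groups also differ in the presence of tumours. The wild-type melanophore libraries came from untreated wild-type fish. Fish of all 3 groups were 1 month old. The design text speaks of 5 zebrafish for the 6 libraries and does not say which fish went into which library, so replicates may share fish and the spread between them may be partly technical.

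Melanophores are the black pigment cells of fish and descend from the neural crest through mitfa-dependent precursors. MGAT4B is a Golgi enzyme that adds a branch to N-linked glycans on secreted and surface proteins. The 35 genes do not form 1 pathway: they hold chromatin, spliceosome and microtubule proteins, protein-folding factors of the cytosol and the endoplasmic reticulum, surface receptors of the Ly6 and immunoglobulin families, and a transcription factor of the circadian clock.

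Library totals ranged between 3538922 and 8446997 counts, with the lowest in the mutant group. The transcript of mgat4b itself (listed as MGAT4B, ENSDARG00000004115) had 19.8 and 15.1 CPM in mutant melanoma, 15.7 and 16.2 CPM in control melanoma and 26.52 and 27.15 CPM in wild-type melanophores. The mutant and control values overlapped (log2 fold change 0.17 ± 0.28 SE, adjusted p = 0.72 by the quasi-likelihood test of edgeR, Benjamini-Hochberg over all genes), so transcript abundance does not check the labels. A single non-coding RNA, rn7sl1, took 26.2 to 30.7% of counts in mutant, 37.3 to 37.4% in control and 7.65% in wild-type libraries. Marker genes of melanophores summed to 425 and 385 CPM in mutant melanoma, 425 and 445 CPM in control melanoma and 133 and 147 CPM in wild-type melanophores. They were thus lowest in the libraries named wild-type melanophores. That name is used here as a sample label, and a value in that group cannot be assigned to melanophores. The 38 keratinocyte markers, at most 3 of them at 0 in any library, summed to 23660 and 22280 CPM in mutant melanoma, 17400 and 17180 CPM in control melanoma and 27410 and 27990 CPM in wild-type melanophores, and so were lowest in control melanoma like the 35 genes, at a smaller contrast. Of these markers 35 were tested for mutant against control, and 4 were called higher and 2 lower. Summed markers of macrophages, of vessel endothelium and of glia and nerve were lowest in mutant melanoma. Those of neutrophils, of lymphocytes and of ionocytes with mucous cells were lowest in control melanoma, where single genes weighed on the sums. For the lymphocyte markers the median log2 fold change of mutant against control was also positive, 0.41 against −0.02 over all genes. For ionocyte and mucous cell markers, AGR2 gave 157 and 126 of 1131 and 1133 CPM in mutant melanoma. In control melanoma it gave 52.9 and 53.5 of 1076 and 1048 CPM. Of 16 of these markers tested, 2 were called higher and 2 lower in mutant against control. Neutrophil markers summed to 2015 and 1919 CPM in mutant melanoma, 1290 and 1332 CPM in control melanoma and 1706 and 1747 CPM in wild-type melanophores. s100a10b alone gave 1314 and 1275 CPM in mutant melanoma, 476 and 503 CPM in control melanoma and 502 and 534 CPM in wild-type melanophores. Of 15 neutrophil markers tested, 1 was called higher and 2 lower in mutant against control. Their median log2 fold change was −0.51 against −0.02 over all genes, so the sum does not stand for the listed genes in general. Fibroblast and scale genes summed to 15070 and 14540 CPM in mutant melanoma, 73280 and 75140 CPM in control melanoma and 6579 and 6068 CPM in wild-type melanophores. Liver, pancreas and intestine genes summed to 779 and 732 CPM in mutant and 1955 and 2002 CPM in control melanoma. In wild-type melanophores they summed to 489 and 484 CPM. Skeletal muscle genes summed to 3306 and 3117 CPM in mutant and 4342 and 4421 CPM in control melanoma. Their sums in wild-type melanophores were 412 and 389 CPM. The part that these shifts in marker genes play in the values below was not tested, and fewer cells of a type cannot be told apart from less RNA per cell in such bulk samples.

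Retention in the mutant was the less common pattern among genes that were low in control melanoma. Of 12148 genes with at least 5 CPM in wild-type melanophores, 519 were low in both control libraries. In the mutant, 300 of these 519 were also at or below 1/3 of the wild-type mean, 182 lay between 1/3 and 0.75, 37 lay between 0.75 and 4, and none exceeded 4. These 37 are the 35 genes and the 2 proteasome genes left out by name, and make up 7.13% of the 519. Among the 11629 genes that were not low in control, 59.6% lay between 0.75 and 4. The plot of both ratios over all these genes shows the 35 genes at the upper left edge of a cloud in which the ratios of mutant and control melanoma move together. Both ratios share the wild-type libraries as denominator.

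**Figure D1:**
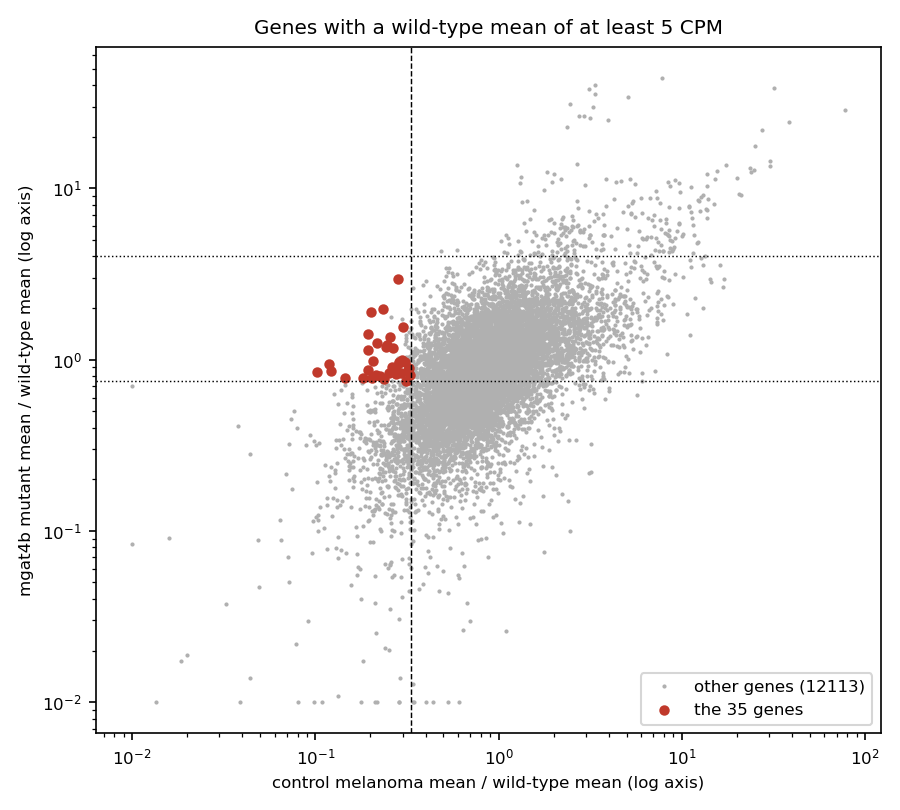
Each point is 1 of 12148 genes with at least 5 CPM in wild-type melanophores; the horizontal axis gives the control melanoma mean and the vertical axis the mgat4b mutant mean, each divided by the wild-type mean, both on log axes with values under 0.01 drawn at 0.01. The dashed line marks 1/3 and the dotted lines 0.75 and 4; the 35 genes (red) lie between 0.102 and 0.329 on the control axis and between 0.751 and 2.97 on the mutant axis.

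Over the 35 genes the median ratio of mutant to wild-type was 0.90 (0.751 to 2.97), the median ratio of control to wild-type was 0.246 (0.102 to 0.329), and the median ratio of mutant to control was 4.32 (2.41 to 10.5). Summed over the set, the libraries held 704 and 729 CPM in mutant melanoma, 175 and 189 CPM in control melanoma and 672 and 712 CPM in wild-type melanophores. All 35 passed the count filter of the edgeR fits. Mutant against control, 26 of the 35 were called higher and none lower, where 5.86% of all genes tested were called higher and 6.68% lower. Control against wild-type, all 35 were called lower and none higher, where 12.1% of all genes were called lower and 19.9% higher. Mutant against wild-type, 3 were called higher (MANF, si:dkey-21e2.16 and si:dkey-21e2.13) and none lower, where 9.72% of all genes were called higher and 9.57% lower. The same contrasts chose the genes, so nothing is read from these counts.

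The mutant libraries did not carry every gene equally. Both mutant libraries stood at 0.75 times the wild-type mean or above for 21 genes, and 1 of them fell below for 14, mutant replicate 1 in 8 cases and replicate 2 in 6. For 5 genes the mutant libraries differed by more than 2-fold. The widest gap was in ENSDARG00000055431, a gene without a symbol on chromosome 20, with 7.80 and 1.74 CPM in mutant melanoma, 1.69 and 1.81 CPM in control melanoma and 5.32 and 5.64 CPM in wild-type melanophores. It was the only 1 of the 35 with a mutant library inside the control range. In 7 genes both mutant libraries exceeded both wild-type libraries, and in 8 both were below them.

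**Figure D2:**
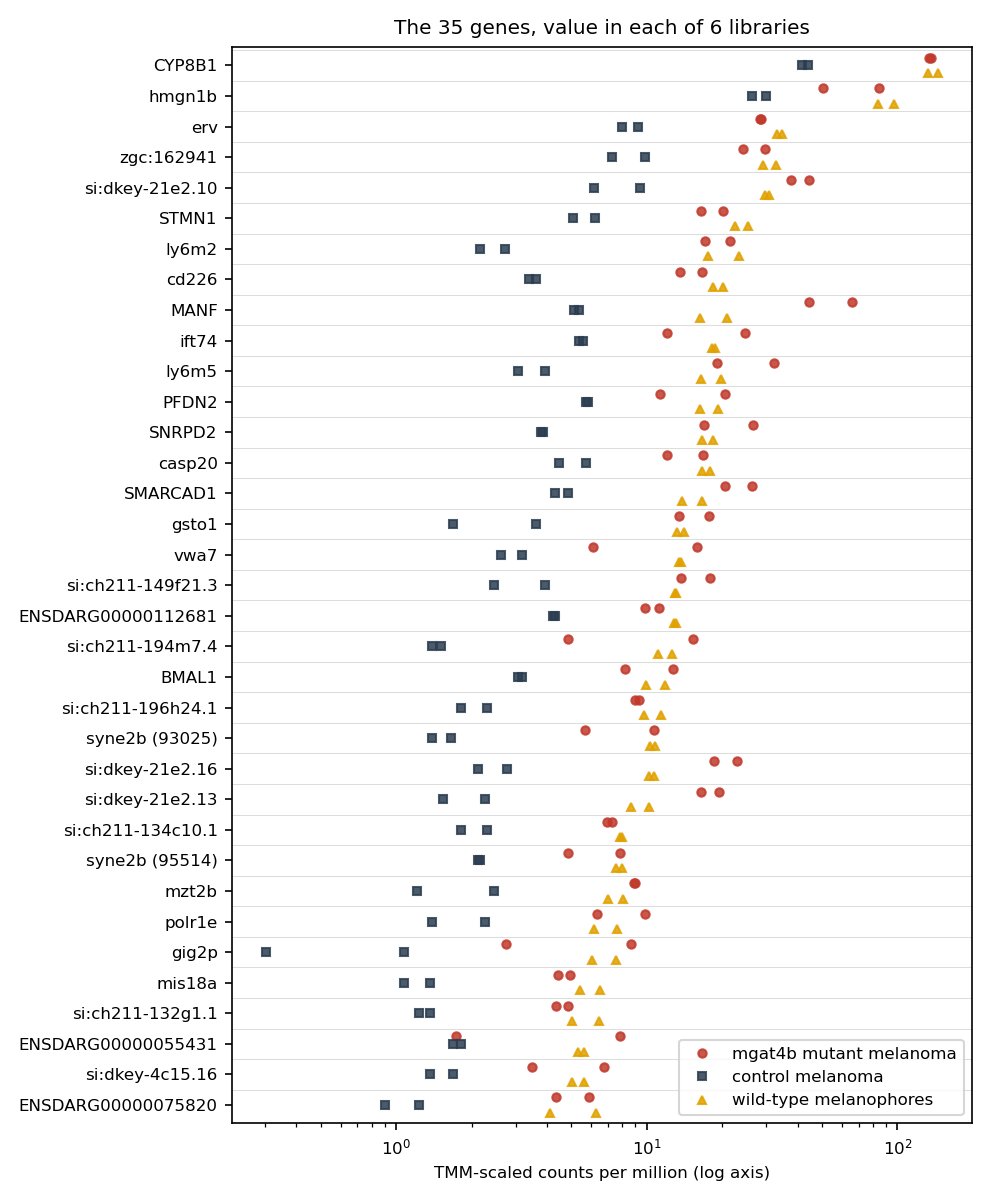
TMM-scaled CPM (log axis) of the 35 genes in each library, ordered by wild-type mean: red circles are the 2 mgat4b mutant melanoma libraries, dark squares the 2 control melanoma libraries and yellow triangles the 2 wild-type melanophore libraries. Mutant and wild-type values lie to the right of both control values in 34 of 35 rows; in ENSDARG00000055431 mutant replicate 2 (1.74 CPM) falls between the control values.

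The thresholds cut through a continuum. Just inside the control limit lay ENSDARG00000112681 and casp20, whose higher control library stood at 0.332 of the wild-type mean, and just outside it lay ACTL6A at 0.335 and MAPRE1 at 0.336. At the lower mutant limit hmgn1b was inside with a ratio of 0.751 and tmsb1, a thymosin gene, was outside with 0.749. The highest mutant ratio was that of MANF, 2.97, so no gene was near the upper limit of 4. The lowest wild-type mean inside was 5.19 CPM, in ENSDARG00000075820, and pask was outside with 4.76 CPM.

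Membership also depends on the scaling. The groups differ in the share of counts that rn7sl1 takes, and the median log2 ratio of control to wild-type over 12626 expressed genes was −0.18 with TMM factors, −0.95 with library totals and −0.09 with DESeq2 size factors. With library totals the same rule found 197 genes, among them 11 of the 35. With DESeq2 size factors it found 26, among them 23 of the 35. Without control replicate 1 or without control replicate 2 it found 88 or 113 genes, all 35 included each time.

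A first group of genes acts in the nucleus and in cell division. hmgn1b (chromosome 10, 39084354-39087854, GRCz11), a relative of the nucleosome-binding HMGN proteins, had 84.8 and 50.7 CPM in mutant melanoma, 26.3 and 29.9 CPM in control melanoma and 83.6 and 96.7 CPM in wild-type melanophores. One mutant library was thus at the wild-type level and the other lay between the control and wild-type values. Per kilobase of exon it was the second most abundant of the set in wild-type melanophores, at 64.5 CPM per kb. SMARCAD1 (chromosome 8, 29635968-29652415), a chromatin remodelling ATPase that in human and yeast cells acts behind replication forks and at DNA breaks, had 20.4 and 26.4 CPM in mutant melanoma, 4.31 and 4.83 CPM in control melanoma and 16.6 and 13.8 CPM in wild-type melanophores. Its mutant values lay above both other groups, 5.12 times the control mean.

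STMN1 (chromosome 19, 17205143-17210928), a stathmin that binds tubulin and destabilises microtubules, had 20.2 and 16.5 CPM in mutant melanoma, 5.08 and 6.19 CPM in control melanoma and 22.5 and 25.3 CPM in wild-type melanophores. Its mutant values fell just short of the wild-type ones. mzt2b, a small protein that in human cells helps recruit the gamma-tubulin ring complex to the mitotic spindle, had 8.86 and 8.98 CPM in mutant melanoma, 2.46 and 1.21 CPM in control melanoma and 8.035 and 6.996 CPM in wild-type melanophores. mis18a, part of the complex that marks centromeres for new CENP-A in human cells, had 4.43 and 4.92 CPM in mutant melanoma, 1.08 and 1.36 CPM in control melanoma and 6.53 and 5.43 CPM in wild-type melanophores. Both are expressed at a low level and rested on few counts in control melanoma, 16 and 8 for mzt2b and 7 and 9 for mis18a.

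In RNA synthesis and processing the set held SNRPD2 and polr1e. SNRPD2 (chromosome 18, 40875873-40884087), 1 of the Sm proteins that form the ring around spliceosomal RNAs, had 16.9 and 26.6 CPM in mutant melanoma, 3.85 and 3.78 CPM in control melanoma and 16.7 and 18.4 CPM in wild-type melanophores. polr1e, a subunit of RNA polymerase I, had 6.33 and 9.85 CPM in mutant melanoma, 1.38 and 2.27 CPM in control melanoma and 7.63 and 6.16 CPM in wild-type melanophores. Mutant and wild-type ranges overlapped for polr1e, and for SNRPD2 the lower mutant library sat among the wild-type values.

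The relatives of these genes, gathered in families after the 35 were known and excluding the 35 themselves, were tested in the same fits with adjustment over all genes. Those named with values were chosen after the values were seen. The other Sm proteins took a different course: 5 of 6 were called higher in mutant against control melanoma and 5 of 6 higher in mutant against wild-type. In control against wild-type 2 of 6 were called higher and none lower by edgeR, and 1 was called by DESeq2. SNRPD1, for example, had 122 and 99.6 CPM in mutant melanoma, 27.5 and 21.3 CPM in control melanoma and 18.9 and 24.4 CPM in wild-type melanophores, a log2 fold change of 2.22 ± 0.18 (SE) for mutant over control (adjusted p = 8.6e-05, edgeR). SNRPD1 in wild-type melanophores was thus near its control level, whereas SNRPD2 was near its mutant level there.

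In the HMGN family 2 of 5 relatives, hmgn1a and hmgn6, were called higher in mutant against control and 4 of 5 lower in control against wild-type. The hmgn6 call was lost without either control library or mutant replicate 1 (adjusted p of 0.125 at most over the alternatives, edgeR). hmgn1a, the paralog of hmgn1b, had 55.9 and 61.1 CPM in mutant melanoma, 25.7 and 17.5 CPM in control melanoma and 54.1 and 61.1 CPM in wild-type melanophores. It followed the pattern of the set outside the control limit, with a log2 fold change of 1.47 ± 0.21 (SE) for mutant over control (adjusted p = 0.0019, edgeR). hmgn3 did not pass for mutant over control (log2 fold change 0.90, adjusted p = 0.19, edgeR) and was lower in mutant than in wild-type (−1.34, adjusted p = 0.016, but 0.0624 without wild-type replicate 1). RBBP4, a histone chaperone that takes part in CENP-A deposition, was called higher in mutant than in control, with a log2 fold change of 2.22 (adjusted p = 0.00014, edgeR), and lower in control than in wild-type (−1.09, adjusted p = 8.1e-09).

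Among RNA polymerase I subunits 3 of 12 were called higher in mutant against control and none lower, namely POLR2F, POLR2H and POLR2L, which the nuclear polymerases share. The POLR2F call was lost without either control library (adjusted p of 0.109 at most over the alternatives, edgeR). None of the 7 gamma-tubulin ring genes was called in that comparison by edgeR or DESeq2, with 2 at an unadjusted p under 0.05, and all 7 had positive fold changes with a median of 0.72 on the log2 scale against −0.02 over all genes. Of 24 remodelling ATPases 3 were called higher and none lower. In the stathmin family 2 of 5 were called lower, and the other zebrafish gene listed as STMN1 (ENSDARG00000033655) had 1.898 and 3.764 CPM in mutant melanoma, 9.23 and 8.76 CPM in control melanoma and 1.21 and 1.46 CPM in wild-type melanophores, highest where its namesake in the set was lowest. None of the 35 belongs to the lists of DNA replication or mitosis genes, of which 36 of 56 and 17 of 59 tested were called higher in mutant against control and none lower. Only 0 and 2 genes of these lists were low in both control libraries, so the rule could hardly have taken any.

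**Figure D3:**
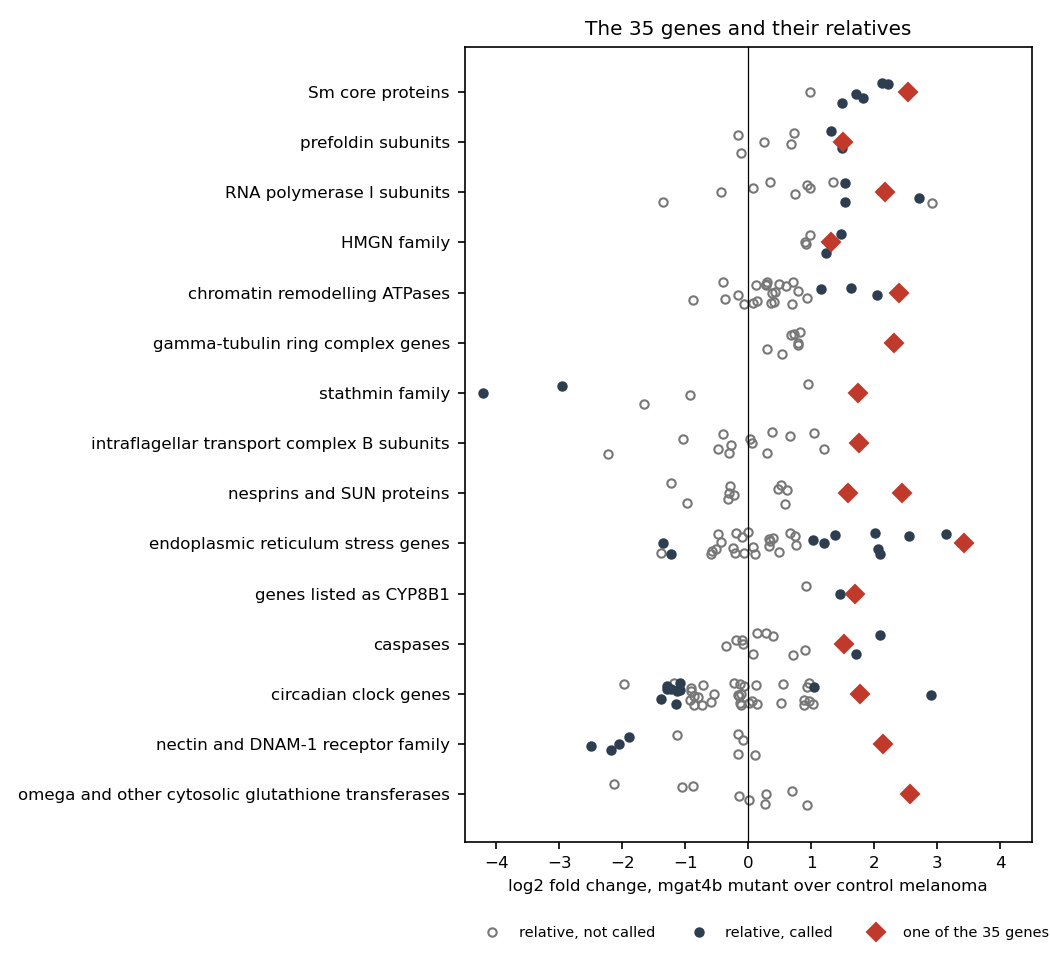
Log2 fold change of mgat4b mutant over control melanoma (horizontal axis) for those of the 35 genes whose family is shown (red diamonds) and for their relatives, filled where called (adjusted p under 0.05 and absolute log2 fold change of at least 1, edgeR) and open where not; 1 stathmin gene beyond the axis is drawn at its edge. Sm proteins lie right of 0 with 5 of 6 called, intraflagellar transport subunits spread around 0 with none called, and clock genes lie on both sides.

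Protein folding was represented by MANF and PFDN2. MANF (chromosome 22, 32228882-32235551), a secreted factor that resides in the endoplasmic reticulum and rises when that compartment is stressed, had 44.5 and 66.0 CPM in mutant melanoma, 5.38 and 5.13 CPM in control melanoma and 20.9 and 16.3 CPM in wild-type melanophores. It had the highest ratio of the set both to wild-type (2.97) and to control (10.5), with no overlap between any of the groups. PFDN2 (chromosome 7, 7477398-7493758), a subunit of the prefoldin chaperone that hands unfolded actin and tubulin to chaperonins, had 20.4 and 11.3 CPM in mutant melanoma, 5.84 and 5.74 CPM in control melanoma and 16.4 and 19.2 CPM in wild-type melanophores. Its mutant libraries lay on either side of the wild-type pair.

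Of 32 other endoplasmic reticulum stress genes tested, 8 were called higher and 2 lower in mutant against control, with a median log2 fold change of 0.22 against −0.02 over all genes. Those called higher were the chaperones and foldases HYOU1, PDIA4, PDIA6, CRELD2, SDF2L1 and 1 DNAJB9 gene, and the amino acid synthesis enzymes PHGDH and ASNS. CRELD2, which like MANF is a secreted stress-induced protein, had 17.9 and 25.8 CPM in mutant melanoma, 2.92 and 2.11 CPM in control melanoma and 4.02 and 3.03 CPM in wild-type melanophores (log2 fold change 3.14 ± 0.40 SE for mutant over control, adjusted p = 0.00093, edgeR). The 2 called lower were the transcription factors ATF3 and cebpg. Leaving out a control library lost the calls of DNAJB9 (either one), ASNS (replicate 2) and cebpg (replicate 1), as did leaving out mutant replicate 1 for ASNS, with adjusted p of at most 0.317 for DNAJB9, 0.109 for ASNS and 0.0524 for cebpg over the alternatives (edgeR). MANF was the only gene of the list with both control libraries at or below 1/3 of a wild-type mean of at least 5 CPM. Of 7 other prefoldin subunits and relatives, PFDN4 and PFDN6 were called higher in mutant against control and none lower. Both calls were lost without control replicate 1 and that of PFDN4 also without control replicate 2 or mutant replicate 2, with adjusted p of at most 0.238 for PFDN4 and 0.126 for PFDN6 over the alternatives (edgeR).

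The most abundant gene of the set was a cytochrome P450. CYP8B1 (ENSDARG00000097559, chromosome 2, 3468069-3470019), named for the mammalian sterol hydroxylase of bile acid synthesis, had 137 and 133 CPM in mutant melanoma, 41.7 and 44.1 CPM in control melanoma and 133 and 146 CPM in wild-type melanophores. At 71.3 CPM per kb it led the set per length as well. The annotation gives the same name to 2 more zebrafish genes, of which neither was called in control against wild-type by edgeR or DESeq2 (1 had an unadjusted p under 0.05) and 1 (ENSDARG00000053068) was called higher in mutant against control, with 37.7 and 42.6 CPM in mutant melanoma, 16.5 and 13.4 CPM in control melanoma and 21.3 and 19.2 CPM in wild-type melanophores (log2 fold change 1.46 ± 0.22 SE, adjusted p = 0.0023, edgeR). Reads shared between these copies could be split differently by the counting, whose handling of multiply mapped reads is not given in the sources used here.

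gsto1 (chromosome 13, 25380432-25389051), an omega-class glutathione transferase, had 13.5 and 17.7 CPM in mutant melanoma, 1.69 and 3.62 CPM in control melanoma and 13.2 and 14.1 CPM in wild-type melanophores. Its paralog gsto2 was also lower in control than in wild-type (log2 fold change −2.31, adjusted p = 1.9e-25, edgeR) but stayed below wild-type in the mutant, with 46.8 and 51.8 CPM in mutant melanoma, 24.3 and 28.7 CPM in control melanoma and 136 and 149 CPM in wild-type melanophores. None of 9 cytosolic glutathione transferases tested, gsto2 included, was called in mutant against control by edgeR, with 3 at an unadjusted p under 0.05 and 1 called by DESeq2. In the wider list of glutathione and antioxidant genes 4 of 38 were called higher (prdx1, prdx6, TXN and SOD1) and none lower. With all libraries the log2 fold changes of prdx1, prdx6 and TXN were 1.11, 1.03 and 1.01. These 3 were no longer called without control replicate 2, nor prdx1 and TXN without mutant replicate 1, and TXN was not called by DESeq2.

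Several of the 35 encode receptors or immune-type genes. ly6m2 and ly6m5, small glycolipid-anchored proteins of the Ly6 family by their name, lie on chromosome 21 with 36795 bases and 2 other genes between them. ly6m2 (5472330-5481824) had 21.5 and 17.1 CPM in mutant melanoma, 2.15 and 2.72 CPM in control melanoma and 17.5 and 23.4 CPM in wild-type melanophores. ly6m5 (5518619-5521294) had 32.0 and 19.1 CPM in mutant melanoma, 3.08 and 3.93 CPM in control melanoma and 19.8 and 16.5 CPM in wild-type melanophores. These are among the steepest contrasts of the set, 7.92 and 7.31 times the control mean in the mutant. Their neighbours did not all share it. ly6m3 had 3.37 and 4.34 CPM in mutant melanoma, 2.00 and 1.66 CPM in control melanoma and 1.61 and 2.61 CPM in wild-type melanophores, while ly6m6 and ly6m7 were lower in control than in wild-type (log2 fold changes −1.99 and −1.32, adjusted p = 4.4e-05 and 0.0084, edgeR) and did not pass for mutant over control (0.68 and 1.03, adjusted p = 0.62 and 0.38). The ly6m7 call against wild-type was lost without control replicate 2 or wild-type replicate 2 (adjusted p of 0.0733 at most over the alternatives).

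cd226 (chromosome 24, 15114092-15133886), the DNAM-1 receptor of lymphocytes and natural killer cells in mammals, had 16.7 and 13.6 CPM in mutant melanoma, 3.38 and 3.62 CPM in control melanoma and 20.2 and 18.4 CPM in wild-type melanophores. It shares 808 of its 2518 exon bases with RTTN on the same strand, so some of its reads may belong to either gene. RTTN had 18.8 and 14.2 CPM in mutant melanoma, 14.8 and 16.8 CPM in control melanoma and 45.6 and 39.6 CPM in wild-type melanophores, and was not retained (log2 fold change 0.11 for mutant over control, adjusted p = 0.84, edgeR). Of 9 relatives of cd226 in the nectin and DNAM-1 family, 4 were called lower in mutant against control and none higher. Their median log2 fold change was −1.124 against −0.02 over all genes, opposite in direction to cd226. Lymphocyte marker genes summed to 1178 and 1209 CPM in mutant melanoma, 959 and 949 CPM in control melanoma and 1794 and 1856 CPM in wild-type melanophores. Of these, CCR9 (ENSDARG00000055186) gave 369 and 457 CPM in mutant melanoma and 241 and 245 CPM in control melanoma. Of 35 lymphocyte markers tested, 4 were called higher and 3 lower in mutant against control. Their median log2 fold change was 0.41 against −0.02 over all genes, in the direction of cd226. Single markers, picked after the values were seen, went both ways. lck had 57.98 and 34.75 CPM in mutant melanoma, 10.92 and 12.84 CPM in control melanoma and 32.14 and 34.04 CPM in wild-type melanophores. ighm had 1.898 and 2.316 CPM in mutant melanoma, 21.53 and 26.43 CPM in control melanoma and 38.67 and 40.52 CPM in wild-type melanophores. Of 42 lymphocyte markers tested, 4 were called higher and 15 lower in mutant against wild-type. The part of lymphocyte markers in the cd226 values was not tested.

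gig2p, of a fish gene family named for induction by a reovirus, had the lowest control ratio of the set, with 2.74 and 8.69 CPM in mutant melanoma, 1.08 and 0.302 CPM in control melanoma and 6.03 and 7.52 CPM in wild-type melanophores. The control values rest on 7 and 2 counts. Of its relatives, 6 of 8 tested were called lower in control against wild-type and 3 of 7 lower in mutant against wild-type, and none of 4 was called in mutant against control by edgeR or DESeq2, with 1 at an unadjusted p under 0.05. casp20 (chromosome 6, 13083665-13114844), a caspase, had 12.02 and 16.79 CPM in mutant melanoma, 4.46 and 5.74 CPM in control melanoma and 16.6 and 18.0 CPM in wild-type melanophores. Of 12 other caspases tested, casp22 and casp6b.1 were called higher in mutant against control and none lower (log2 fold changes 1.71 and 2.09, adjusted p = 0.0044 and 0.00032, edgeR).

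Genes of the immune lists stayed outside the set, as did those of most other lists. Only 7.13% of all 519 low genes were retained in the mutant. A list with few low genes could therefore hold none, and the absence is not read as a result. Of the genes low in both control libraries, 12 were interferon-induced antiviral genes, 8 pan-leukocyte genes and 9 lymphocyte genes. In the mutant, 10, 4 and 5 of these stood at or below 1/3 of the wild-type mean, the other 2, 4 and 4 lay between 1/3 and 0.75, and none is among the 35. Pan-leukocyte markers summed to 1237 and 1288 CPM in mutant melanoma, 1267 and 1245 CPM in control melanoma and 2693 and 2785 CPM in wild-type melanophores. Across the 34 gene lists, without the families of relatives added later, 4 of the 35 genes (MANF, polr1e, BMAL1 and gsto1) belonged to a list, a share of 11.4%. Of the other 484 low genes 54 did, a share of 11.2%.

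A second cluster lies on chromosome 22 (19247255-19313738), where si:dkey-21e2.10, si:dkey-21e2.13 and si:dkey-21e2.16, genes with clone names and no role in the annotation used here, are 26627 and 32158 bases apart. The RefSeq symbol matched to si:dkey-21e2.16 is swift. si:dkey-21e2.10 had 37.5 and 44.6 CPM in mutant melanoma, 6.15 and 9.36 CPM in control melanoma and 30.8 and 29.6 CPM in wild-type melanophores. si:dkey-21e2.13 had 19.4 and 16.5 CPM in mutant melanoma, 1.54 and 2.27 CPM in control melanoma and 8.638 and 10.23 CPM in wild-type melanophores. si:dkey-21e2.16 had 18.6 and 22.9 CPM in mutant melanoma, 2.77 and 2.11 CPM in control melanoma and 10.65 and 10.23 CPM in wild-type melanophores. All 3 were above both wild-type libraries in both mutant libraries, at 1.36, 1.902 and 1.984 times the wild-type mean. A further gene of the same clone name, si:dkey-21e2.4, had 23.6 and 28.4 CPM in mutant melanoma, 6.92 and 4.68 CPM in control melanoma and 18.7 and 18.5 CPM in wild-type melanophores (log2 fold change 2.19 ± 0.33 SE for mutant over control, adjusted p = 0.0021, edgeR), and missed the control limit. si:dkey-21e2.15, which lies between 2 genes of the set, was lower in control than in wild-type (log2 fold change −2.85, adjusted p = 5.9e-09, edgeR) and uneven in the mutant, with 3.37 and 9.56 CPM in mutant melanoma, 1.54 and 1.06 CPM in control melanoma and 8.74 and 11.8 CPM in wild-type melanophores (2.32 ± 0.77 SE for mutant over control, adjusted p = 0.068 by edgeR, though called higher by DESeq2 at 0.031, by the fit of all 6 libraries and without mutant replicate 1). In contrast, si:dkey-21e2.7 was low in both melanomas, with 0.633 and 0 CPM in mutant melanoma, 1.85 and 0.755 CPM in control melanoma and 4.72 and 5.74 CPM in wild-type melanophores.

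**Figure D4:**
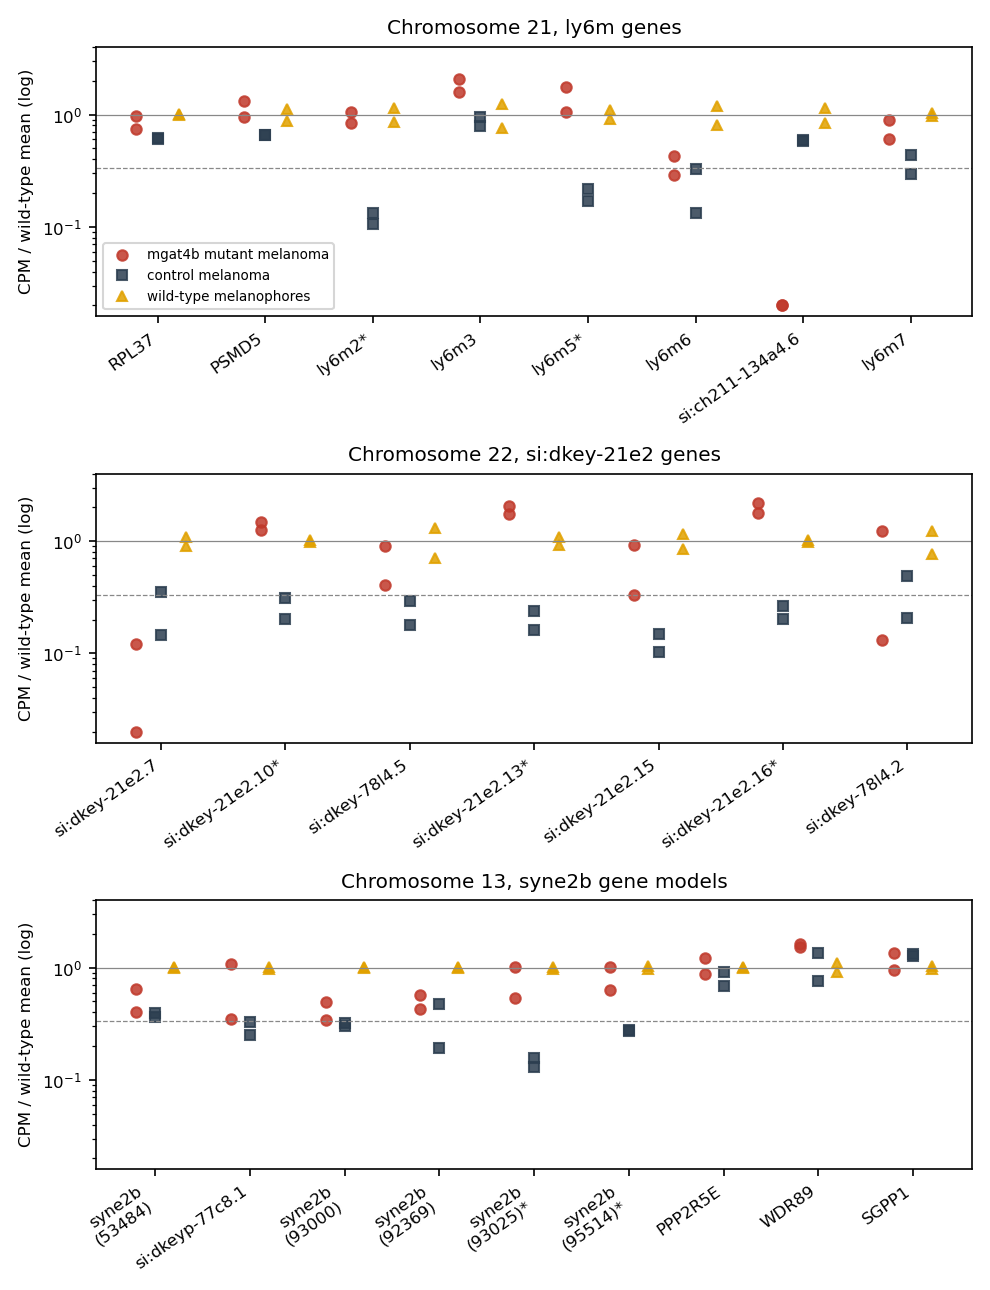
CPM of each library divided by the wild-type mean (log axis; values of 0 or under 0.02 are drawn at 0.02) for genes with at least 2 CPM in wild-type melanophores around the 3 clusters, in chromosome order: red circles are mgat4b mutant melanoma, dark squares control melanoma and yellow triangles wild-type melanophores, and an asterisk marks the 35 genes. The solid line marks 1 and the dashed line 1/3; ly6m6, si:dkey-21e2.7 and the longest syne2b model stay below the wild-type libraries in both melanomas beside genes of the set that do not.

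Cytoskeletal and ciliary genes were ift74 and 2 entries for syne2b. ift74 (chromosome 5, 457729-478627), a subunit of the complex that carries cargo into cilia, had 12.02 and 24.61 CPM in mutant melanoma, 5.38 and 5.59 CPM in control melanoma and 18.2 and 18.8 CPM in wild-type melanophores. The mutant libraries lay below and above the wild-type pair and differed by more than 2-fold. No other subunit of the same complex was called by edgeR in mutant against control (0 of 13, with 2 at an unadjusted p under 0.05 and 1 called by DESeq2) or in control against wild-type (0 of 14, with 1 at an unadjusted p under 0.05 and none called by DESeq2).

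syne2b encodes a nesprin, which ties the nuclear envelope to the cytoskeleton, and the files hold 5 entries of that name on chromosome 13. ENSDARG00000093025 had 5.69 and 10.7 CPM in mutant melanoma, 1.38 and 1.66 CPM in control melanoma and 10.75 and 10.34 CPM in wild-type melanophores. ENSDARG00000095514, its neighbour 16681 bases away, had 4.85 and 7.82 CPM in mutant melanoma, 2.15 and 2.11 CPM in control melanoma and 7.53 and 7.94 CPM in wild-type melanophores. Both are short models of 434 and 409 exon bases inside the span of the longest one, ENSDARG00000053484, which had 54.6 and 33.9 CPM in mutant melanoma, 33.2 and 30.8 CPM in control melanoma and 84.7 and 83.8 CPM in wild-type melanophores. That model was lower in control than in wild-type (log2 fold change −1.28, adjusted p = 5.9e-15, edgeR) and did not pass for mutant over control (0.51 ± 0.23 SE, adjusted p = 0.16). The 2 other short entries likewise did not pass for mutant over control (0.47 and 0.62, adjusted p = 0.64 and 0.52). Of the entries in the set, ENSDARG00000095514 was not called for mutant over control either, so that call does not separate the 2 entries in the set from the 3 outside it.

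The clock gene of the set was BMAL1 (ENSDARG00000035732, chromosome 7, 66048102-66105828), the partner of CLOCK in the activating arm of the circadian oscillator, whose products drive the period and cryptochrome genes that in turn repress it. It had 8.22 and 12.7 CPM in mutant melanoma, 3.08 and 3.17 CPM in control melanoma and 9.94 and 11.8 CPM in wild-type melanophores. The wild-type values fell between the mutant ones. The second BMAL1 gene (ENSDARG00000006791) was also lower in control than in wild-type (log2 fold change −1.45, adjusted p = 9.2e-07, edgeR), with 9.70 and 9.85 CPM in mutant melanoma, 5.54 and 5.29 CPM in control melanoma and 14.4 and 17.8 CPM in wild-type melanophores, but did not pass for mutant over control (0.89 ± 0.42 SE, adjusted p = 0.18).

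Of 44 other clock genes tested, 3 were called higher and 9 lower in mutant against control. Higher were bmal2 (log2 fold change 1.74, adjusted p = 0.0065, edgeR), the nuclear receptor gene rorc (2.90, adjusted p = 0.00051) and 1 CLOCK gene (1.05, adjusted p = 0.022), whose call was lost without either control library or without mutant replicate 2 (adjusted p of 0.21 at most over the alternatives). Lower were the repressors PER1, PER2, PER3, CRY1, CRY2, ciarta and nfil3-6 and the output factors tefb and dbpb. PER3, for example, had 143 and 140 CPM in mutant melanoma, 311 and 305 CPM in control melanoma and 209 and 190 CPM in wild-type melanophores (log2 fold change −1.09 ± 0.10 SE, adjusted p = 0.00015, edgeR). With library totals in place of TMM factors CRY1, PER2, PER3, tefb and dbpb no longer reached a log2 fold change of −1. The CRY1 call was also lost without control replicate 2 or mutant replicate 1, those of tefb and dbpb without either control library, and that of tefb without mutant replicate 2 (adjusted p of at most 0.114 for CRY1, 0.0665 for tefb and 0.275 for dbpb over the alternatives, edgeR). The time of day at which each group was collected is not given in the sources used here and its part in these values was not tested.

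The remaining genes have names without a clear role here. erv (chromosome 19, 7966116-7968667) had 28.2 and 28.7 CPM in mutant melanoma, 7.997 and 9.212 CPM in control melanoma and 34.8 and 33.2 CPM in wild-type melanophores. zgc:162941 (chromosome 14, 20900989-20908036) had 29.7 and 24.3 CPM in mutant melanoma, 9.84 and 7.25 CPM in control melanoma and 29.2 and 32.7 CPM in wild-type melanophores. vwa7 (chromosome 18, 40525408-40540703), named for its von Willebrand factor A domain, had 6.11 and 15.9 CPM in mutant melanoma, 2.62 and 3.17 CPM in control melanoma and 13.5 and 13.7 CPM in wild-type melanophores. erv and zgc:162941 were even between the mutant libraries and vwa7 was not.

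si:ch211-194m7.4 (chromosome 25, 13198224-13202208) was also uneven, with 4.85 and 15.4 CPM in mutant melanoma, 1.38 and 1.51 CPM in control melanoma and 11.05 and 12.63 CPM in wild-type melanophores. si:ch211-149f21.3 had 13.7 and 17.9 CPM in mutant melanoma, 2.46 and 3.93 CPM in control melanoma and 12.96 and 13.05 CPM in wild-type melanophores. si:ch211-196h24.1 had 9.28 and 8.98 CPM in mutant melanoma, 2.31 and 1.81 CPM in control melanoma and 9.74 and 11.4 CPM in wild-type melanophores. The last 5 besides ENSDARG00000055431, namely ENSDARG00000112681, si:ch211-134c10.1, si:ch211-132g1.1, si:dkey-4c15.16 and ENSDARG00000075820, had mutant to wild-type ratios between 0.80 and 0.987 and were, with ENSDARG00000055431, gig2p, mis18a and syne2b (ENSDARG00000095514), the 9 genes not called in mutant against control.

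In the annotation the 35 genes had less exon sequence and fewer exon records at the median, which does not give the span of the genes. Their median exon length was 1748 bases, against 2163.5 bases in the other 484 genes low in both control libraries and 2822 bases in the 11629 genes not low in control. The median number of exon records was 6, against 10 and 16. Clone-based names were carried by 10 of the 35, by 143 of the other 484 and by 1093 of the 11629 genes not low in control. The genes lay on 17 chromosomes and 2 unplaced scaffolds, with 5 on chromosome 22, and all 26 that could be matched by symbol to a RefSeq gene were protein coding.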

How the data were processed

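Total RNA libraries were prepared with rRNA depletion and processed by the authors with Trimmomatic, STAR (build GRCz11) and featureCounts. Per library, the authors deposited unnormalised read counts for 32520 genes, in 6 libraries; the strand setting, the annotation release and the treatment of multiply mapped reads are not given in the sources used here. Symbols came from a gene name table.

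TMM factors were computed over all genes and libraries with edgeR 4.0.16 (R 4.3.3), and the selection rule was applied to the scaled CPM. The 35 genes and the 34 gene lists were chosen with earlier results of these data known, and 19 families of relatives were added once the 35 were known. Named among the 35 were the 12 of highest wild-type CPM, the 6 of lowest control ratio, the 6 of highest mutant ratio, up to 4 per list, and those nearest each threshold; all others are accounted for too.

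Each of 3 pairwise comparisons was fitted on its 4 libraries with edgeR's quasi-likelihood test (filterByExpr, minimum count 10, minimum total 15), without covariates. A gene was called at a Benjamini-Hochberg adjusted p under 0.05 over all genes tested with a log2 fold change of 1 or more in size. The standard error given is the fold change divided by the square root of F. The study's tool, DESeq2 (1.42.0), was an alternative, beside other scalings, filters, a replicate block and the omission of each library. Applying these to single relatives was chosen after seeing the data, as were the relatives named with values. On simulated counts for the mutant and control comparison, 83% of 200 genes changed 4-fold were called. These counts were simulated with a biological coefficient of variation (spread between replicates beyond counting noise) of 0.25. The value measured between replicates was 0.354 in mutant and 0.0938 in control melanoma. The simulated spread was thus lower than that of the mutant libraries, and the 83% does not give the share recoverable among the genes of the set. Library totals of 3538922 to 8446997 limit low genes: 3 counts equal 0.301 to 0.869 CPM. One relative is not reported here.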

Additional observations from a re-analysis of the deposited data

How the results depend on the processing

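The number of genes meeting the rule was 35. It became 197 with library totals, 13 with control limited to 1/4 of the wild-type mean, 273 with 1/2, 95 with a mutant floor of 0.5, and 21 when each mutant library had to reach 0.75; leaving out 1 library gave 32 to 113. Genes called in control against wild-type numbered 6091, but 3984 with at least 10 counts in every library, and 5621 to 5931 without 1 library, where the members called stayed at 35. Mutant against control, 2214 genes and 26 of the 35 were called, 1281 and 16 without the low-count filter, and 1140 to 5155 and 15 to 32 without 1 library, the lowest without a control library. Mutant against wild-type, 3461 genes and 3 of the 35 were called, 1 of the 35 with DESeq2 or without the filter, and 1820 to 6452 genes and 1 to 5 of the 35 without 1 library. With 1 library left in a group, it was assumed to vary like the other group.

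Replicate numbers did not pair the samples (correlations of deviations −0.0154 to 0.00556). With a replicate block 5941, 2147 and 3488 genes and 35, 25 and 3 of the 35 were called in control against wild-type, mutant against control and mutant against wild-type. Genes called among the lists' other genes numbered 290 for mutant against control, and 287 to 340 under its alternatives. Fold changes of the 21 named genes kept their sign in 143 of 168 alternative values for mutant against wild-type (13 of 21 with library totals), and in all 168 for mutant against control and for control against wild-type, where the rule had fixed the direction.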
